A study of Rattus norvegicus with 6 samples.

Results

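The congenic rat strain BDIX.BDIV-Mss4a was compared with BDIX, the strain that received the introgressed segment, in the trigeminal nerve. The comparison holds 4 of the 6 arrays of the study, chosen by strain from their labels: 2 arrays of the congenic and 2 of BDIX, each with 1 male and 1 female pool. The other 2 arrays are of BDIV, the donor strain, and entered the statistical model to estimate the spread and counted in the choice of probes to test. All rats were inbred, untreated and 85 days old, and total RNA came from isolated nerves that were pooled. How many animals went into each pool is not stated in the sources used here. Each strain and sex had a single measurement, so the p-values rest on how far these pools differ, which may be technical. The congenic strain carries the Mss4a segment of BDIV on the BDIX background. Mss4 is known from linkage work as one of the loci that modify the susceptibility of rats to malignant schwannomas of the trigeminal nerve after ethylnitrosourea, an alkylating carcinogen. BDIX rats are susceptible and BDIV rats are resistant.

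The trigeminal nerve carries sensation from the face and motor fibres to the jaw muscles. Its axons are wrapped by Schwann cells, whose myelin is a stack of membrane rich in cholesterol and galactolipids. Schwann cells make most of this cholesterol themselves through the mevalonate pathway. Fibroblasts, perineurial cells and vessels fill the space between the fibres, and Schwann cells are also the cells from which schwannomas grow.

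The arrays were Illumina rat expression BeadChips, on which the brightness of each probe is read for the transcript it was made to bind. Values are log2 intensities after background correction and quantile normalisation, a scale on which a difference of 1 is a doubling. Levels of different genes are not compared, since probes differ in brightness. The congenic arrays were the dimmest, with an upper quartile of signal over background of 2.58 and 2.64 in the male and female, against 5.33 and 5.95 on the BDIX arrays. In the congenic 8685 and 8840 probes were detected at a p under 0.01, and in BDIX 9644 and 10174. The part that this difference in brightness has in the results was not tested, and since no label gives a batch of hybridisation, strain and batch cannot be told apart. Of 10 defining markers of peripheral nerve 7 were tested, and all 7 were detected on all 4 arrays at levels of 11.02 to 15.09.

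Of 10484 probes tested, 1252 (11.9%) had a Benjamini-Hochberg adjusted p under 0.05 in limma and are described as called. In the congenic 455 (4.34%) were higher and 797 (7.6%) were lower, and 780 of the 1252 differed by more than 2-fold, of which 569 were lower. The called probes named 902 genes, 357 higher and 545 lower. The median difference over all tested probes was 0.00. With scaling of each array to its median in place of quantile normalisation, that median was -0.48 and 97.0% of 3940 calls were lower, against 63.7% here, so the balance of higher and lower genes is relative to the array's own distribution. When only probes detected on all 4 arrays were tested, 53.2% of 1217 calls were lower. All 1252 called probes differed in one direction in males and in females, a property that the residual of the model favours, against 69.8% of all tested probes. Statements below that the arrays of strains did not overlap are descriptions, since a call favours that order too and its share over all probes was not counted. Where nothing else is said, differences below are congenic minus BDIX on the log2 scale with the standard error of the fit, 2 arrays per strain, and adjusted p from limma. Leaving out 1 array changed the count of calls by more than 1.5 times in 4 of 6 cases, to 653 without the congenic male, 533 without the congenic female, 3170 without the BDIX male and 2137 without the BDIX female array. Without either BDIV array the counts were 848 and 846.

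**Figure D1:**
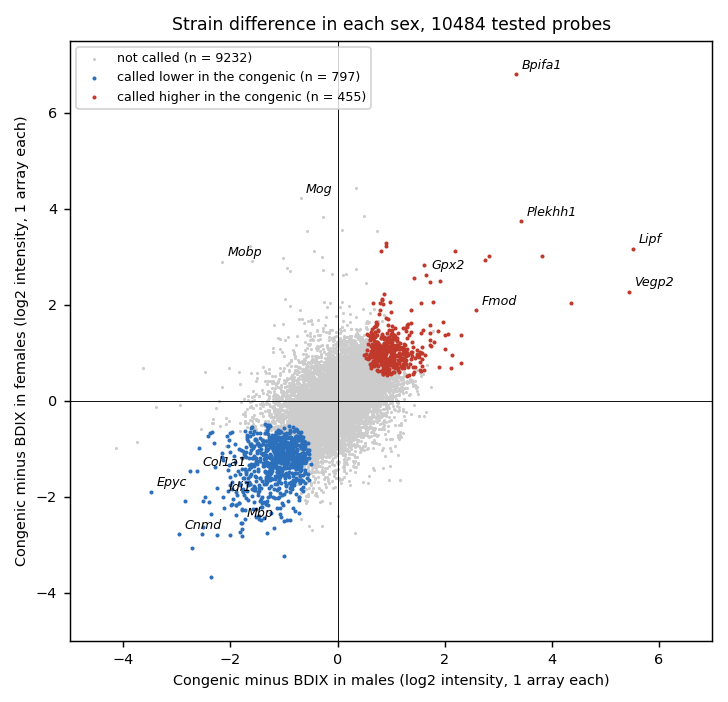
Difference between congenic and BDIX in males (horizontal axis) and in females (vertical axis), in log2 intensity with 1 array per strain and sex, where each point is 1 of 10484 tested probes. Of these 455 were called higher and 797 lower in the congenic, and all of them lie in the lower left or upper right quadrant, whereas Mobp and Mog, markers of central myelin, lie in the upper left.

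The share of genes called on rat chromosome 6, to which linkage work has placed Mss4, was near that of the genome. Of 324 tested genes annotated there 15 were higher and 20 lower, which is 10.8%, rank 14 of 21 chromosomes, against 11.6% of 7781 named genes (4.58% higher and 6.98% lower). Chromosome 3 had the highest share with 16.1%. The sources used here do not state how far the introgressed segment extends, and positions of probes were not used beyond the order of genes in the reference annotation.

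The gene with the largest difference on chromosome 6 was Plekhh1, which encodes a protein with pleckstrin homology, MyTH4 and FERM domains. Its levels were 8.23 and 8.61 in the congenic (male and female), 4.81 and 4.87 in BDIX and 8.34 and 8.39 in BDIV. The congenic arrays thus stood beside the BDIV arrays, though only 1 of the 2 BDIV arrays counted as detecting the gene. Neither BDIX array detected it, which makes it at least 7.60-fold higher in the congenic (3.58 ± 0.22). Without the congenic arrays the gene would not have passed the filter on detection, so no p is given. Gpx2, a glutathione peroxidase known from epithelia, lies close to it in gene order. Gpx2 read 9.79 and 9.54 in the congenic, 8.14 and 6.91 in BDIX and 10.67 and 10.54 in BDIV. Both congenic values were above both BDIX values and below both BDIV values (2.14 ± 0.28, adjusted p = 0.0126). Both genes were called whichever of the 6 arrays was left out, but the call of Plekhh1 follows in part from that filter.

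The tested genes of chromosome 6 were taken in windows of 20 in annotation order. Called genes made up 0% to 20% of each full window, and 1 of the last 4 genes, with 1 exception. In the window from Mthfd1 to Galnt16, which holds Plekhh1 and Gpx2, 6 of 20 (30%) were called. It was picked for its share after the values were seen. The 6 include Plekhh1, whose call follows in part from the filter on detection. The other called genes of that window were Fntb, the beta subunit of the enzyme that farnesylates Ras proteins (0.80 ± 0.18, adjusted p = 0.0373), Pigh, which acts in the first step of glycosylphosphatidylinositol anchor synthesis (0.94 ± 0.23, adjusted p = 0.0438), Ppp1r36, a regulatory subunit gene of protein phosphatase 1 (-0.83 ± 0.20, adjusted p = 0.0407), and Eif2s1, the alpha subunit of translation initiation factor 2 (-1.26 ± 0.21, adjusted p = 0.0203). Pigh levels were 6.90 and 7.32 in the congenic, 6.17 on both BDIX arrays, and 7.10 and 7.12 in BDIV, so that the congenic again read near BDIV. For Eif2s1 the order was different, with 7.21 and 7.10 in the congenic, 8.29 and 8.54 in BDIX and 8.47 and 8.63 in BDIV. The congenic was then the strain apart. These 4 genes lost their call when the congenic female array was left out (adjusted p = 0.0859 for Eif2s1), Fntb, Pigh and Ppp1r36 also without the congenic male or either BDIV array, and Pigh without the BDIX female array too. Fntb and Pigh were also not called under median scaling (adjusted p = 0.29 and 0.259). In the window before it, Tmx1 and Rhoj were lower and Rtn1 and Mnat1 higher, and none of these 4 was called without the congenic female array. Where the strains differ in sequence under a probe, its reading cannot separate that from the transcript's amount, which bears most on genes inside a segment of BDIV origin.

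**Figure D2:**
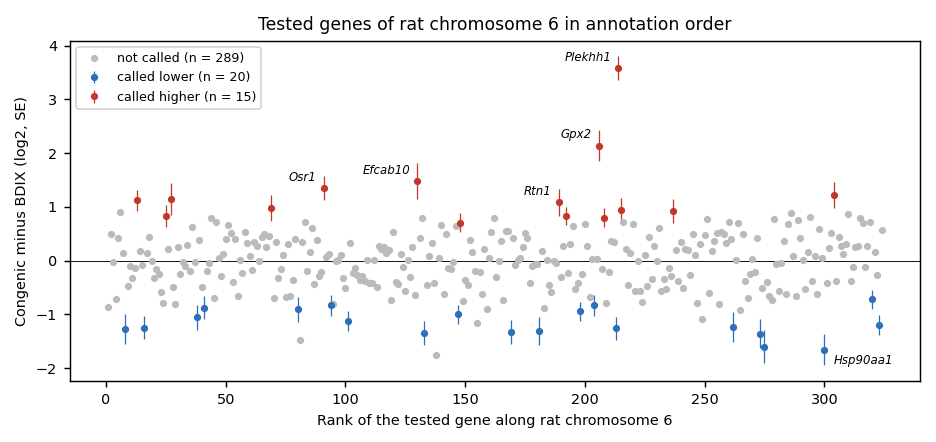
Difference between congenic and BDIX (log2, error bars SE of the fit, drawn for called genes) for the 324 tested genes of rat chromosome 6, placed by rank in the annotation and not by distance. Of these 15 were called higher and 20 lower, and Plekhh1 at 3.58 and Gpx2 at 2.14 stand above the others.

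Of 18 tested members of the sterol synthesis pathway and its regulators 10 were called lower in the congenic and 0 higher, against 6.98% lower among named genes, and the median difference of the list was -0.91, against 0.03 over named genes. Idi1, the isomerase that supplies the branch point of isoprenoid synthesis, read 9.34 on both congenic arrays, 11.48 on the BDIX male and 11.34 on the BDIX female array. The strains did not overlap, and the gene fell by 2.07 ± 0.17 (adjusted p = 0.00557). Fdps, the next enzyme, which makes farnesyl diphosphate, read 9.65 and 9.47 in the congenic and 11.40 and 11.08 in BDIX. The difference was -1.68 ± 0.20 (adjusted p = 0.00956).

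The enzymes committed to sterols follow. Fdft1, squalene synthase, read 11.12 and 11.08 in the congenic and 11.68 and 12.15 in BDIX (-0.82 ± 0.19, adjusted p = 0.0409). Sqle, squalene epoxidase, read 10.96 and 10.86 against 11.62 and 12.01 (-0.90 ± 0.19, adjusted p = 0.0335). After the ring is closed, Cyp51, the lanosterol demethylase, fell by 1.79 ± 0.22 (adjusted p = 0.0113), and was detected on 1 of 2 congenic arrays. Tm7sf2 and Msmo1, which act next on the sterol nucleus, fell by 0.92 ± 0.18 and 1.07 ± 0.21. Of the last steps, Sc5d and Dhcr7 fell by 1.16 ± 0.21 and 1.03 ± 0.18 (adjusted p = 0.0247 and 0.022). Scap, the escort protein of the sterol regulatory element binding proteins, fell by 1.07 ± 0.19 (adjusted p = 0.023). For each of these 10 genes both congenic arrays read below both BDIX arrays, an order that their choice as called genes favours. Mvd, which precedes Idi1 in the pathway, was not called (-0.30 ± 0.18, adjusted p = 0.277).

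The count of sterol genes called rested on both congenic arrays. It was 4 without the congenic male array and 3 without the congenic female array, and 9 without either BDIV array. Idi1, Fdps and Cyp51 kept their call whichever of the 6 arrays was left out, with an adjusted p of at most 0.0283. Under median scaling, with all probes at a median of -0.48, 15 of the 18 were called lower at a median of -1.45.

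Because these genes were lower together, their promoters were read for letters known from sterol-regulated genes. The promoter table of RefSeq (GRCr8) held 14 of the 18 genes. The CCAAT box, which is bound by the factor NF-Y and in mammals often stands near the sites of sterol regulatory element binding proteins, was searched as CCAAT on either strand (CCAAT or ATTGG) in the 250 bases before the annotated start. It was present in 10 of 14 (71.4%), against 34.3% of 27457 promoters in the table and 35.1% of 6469 tested genes. The letters TCACNCCAC on either strand, a form of the sterol element, were present in 0 of 14, against 0.976% of all promoters. Of genes called lower as a whole 39.5% held CCAAT, and of genes called higher 38.8%. A match is a description of the letters and no evidence of binding. The promoters of 3 genes called lower at different steps are shown 5′ to 3′, from 250 bases before the start to the base before it, with CCAAT or ATTGG in capitals. They are the 3 called genes of the list with the smallest p in limma among those with a match, so each holds CCAAT by choice. Called genes with no match or no promoter in the table, such as Cyp51, were passed over. Idi1 lies at chr17:66547525-66547774, Fdps at chr2:176804817-176805066 and Sc5d at chr8:51538278-51538527, each on the minus strand.
Idi1: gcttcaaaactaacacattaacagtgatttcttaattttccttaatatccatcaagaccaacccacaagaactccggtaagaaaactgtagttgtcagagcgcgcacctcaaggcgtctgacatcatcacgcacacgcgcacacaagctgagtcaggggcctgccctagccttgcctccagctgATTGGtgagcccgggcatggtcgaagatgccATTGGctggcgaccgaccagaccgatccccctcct
Fdps: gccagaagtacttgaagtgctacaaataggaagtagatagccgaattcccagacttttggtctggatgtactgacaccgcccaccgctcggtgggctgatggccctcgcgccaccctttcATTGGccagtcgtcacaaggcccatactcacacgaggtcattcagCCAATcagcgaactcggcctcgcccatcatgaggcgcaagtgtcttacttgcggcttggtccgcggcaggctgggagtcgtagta
Sc5d: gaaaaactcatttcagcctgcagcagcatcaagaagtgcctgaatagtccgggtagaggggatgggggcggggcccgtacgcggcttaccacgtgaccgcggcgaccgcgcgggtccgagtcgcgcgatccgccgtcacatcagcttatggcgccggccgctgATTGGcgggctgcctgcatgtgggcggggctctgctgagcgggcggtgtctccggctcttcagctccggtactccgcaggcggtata
Idi1 and Fdps each held 2 matches and Sc5d held 1, and the match nearest to the start ended 31, 81 and 83 bases before it in that order.

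Of 17 tested genes of fatty acid and sphingolipid synthesis 7 were called lower and 0 higher, with a median of -0.65, against 6.98% of named genes called lower. Ugt8 makes galactocerebroside, the main galactolipid of myelin. It read 11.46 and 11.66 in the congenic, 13.22 and 13.54 in BDIX and 12.30 and 12.09 in BDIV. The 3 strains did not overlap, with BDIV between the others, and the congenic was lower than BDIX by -1.82 ± 0.20 (adjusted p = 0.00885). Acly, which supplies cytosolic acetyl-CoA, fell by 1.19 ± 0.18, the desaturase genes Scd and Fads1 fell by 1.15 ± 0.18 and 1.39 ± 0.22, and the acyl-CoA synthetase gene Acsl3 fell by 0.90 ± 0.17. Hacd3, a dehydratase of fatty acid elongation, and Agpat1, an enzyme of phospholipid synthesis, also were lower. The count was 3 without the congenic male array, 2 without the congenic female array and 12 without the BDIX male array, and Ugt8 was called in each case.

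Myelin protein genes were split. Of 17 tested members 5 were called lower and 0 higher (median -0.43), against 6.98% of named genes called lower. Mbp, the basic protein that compacts the cytoplasmic faces of myelin, read 11.14 and 11.31 in the congenic, 12.94 and 13.85 in BDIX and 11.78 and 11.83 in BDIV. Its difference was -2.17 ± 0.24 (adjusted p = 0.00885). Pllp, the membrane protein plasmolipin, read 9.37 and 9.63 in the congenic against 11.35 and 11.32 in BDIX (-1.83 ± 0.20, adjusted p = 0.00885). In both genes the congenic arrays lay below the arrays of the other strains. Mal, a proteolipid of lipid-rich membrane, Fxyd6, a regulator of the sodium pump, and Gjb1, the gap junction protein connexin 32 of Schwann cells, fell by 1.05 ± 0.26, 1.18 ± 0.21 and 1.05 ± 0.22. Gjb1 was detected on neither congenic array and is at least 1.22-fold lower. Pmp22, the peripheral myelin protein whose gene dosage is known to cause neuropathy, stood between 14.70 and 15.09 on the 4 arrays, a difference that did not pass the test (0.24 ± 0.22, adjusted p = 0.473). Mbp and Pllp kept their call whichever array was left out, while Mal, Fxyd6 and Gjb1 lost theirs without the congenic female array. The count of called myelin genes was 3 without the congenic male or the congenic female array and 8 without the BDIX female array.

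**Figure D3:**
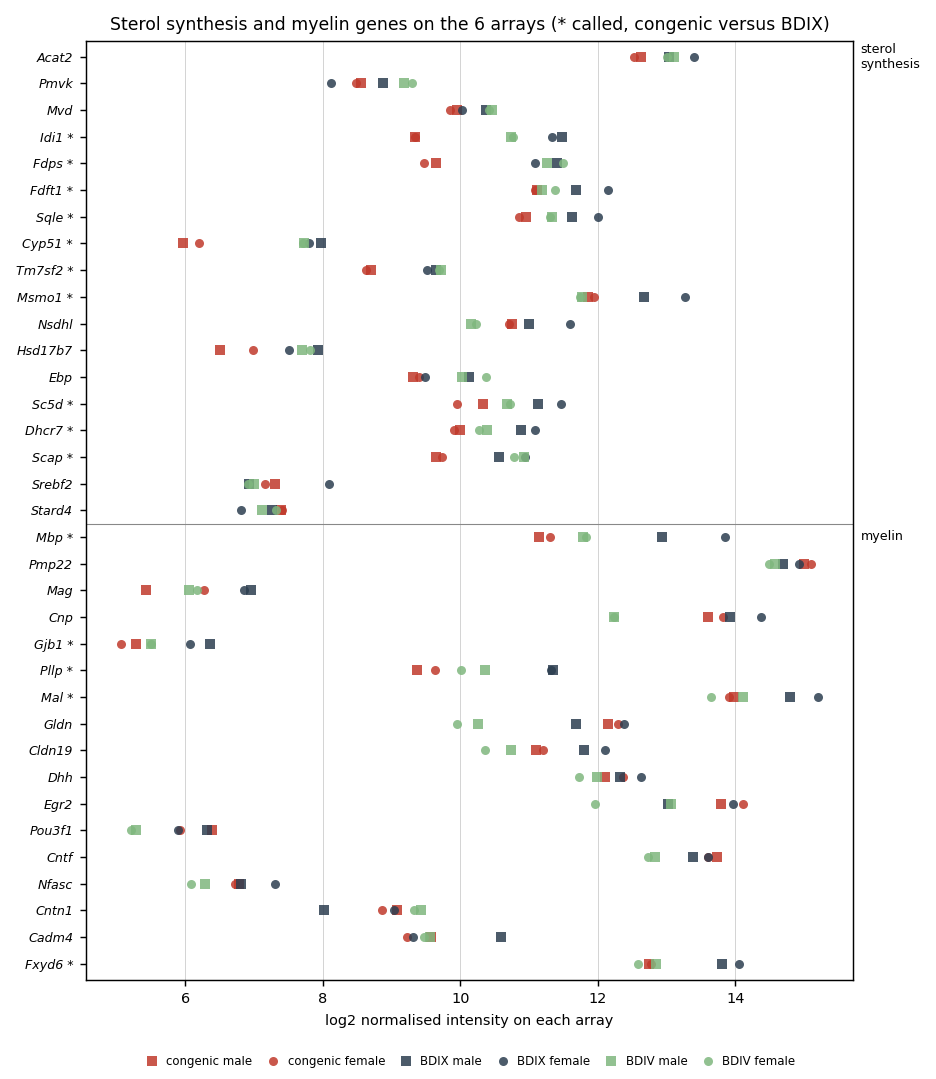
Log2 normalised intensity (horizontal axis) of the 18 tested sterol synthesis genes in pathway order and of the 17 tested myelin genes on each of the 6 arrays, with squares for male and circles for female pools. Stars mark called genes, and Idi1, Fdps, Cyp51, Mbp and Pllp show both congenic points well to the left of both BDIX points. Positions compare arrays within a gene and not genes with each other.

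Genes of the Schwann cell lineage did not move as a list. Of 17 tested 1 was higher and 2 lower, against 4.58% and 6.98% of named genes, with a median of -0.02 (-0.33 under median scaling). The sodium channel gene Scn7a, which non-myelinating Schwann cells are known to express, fell by 1.09 ± 0.18 (adjusted p = 0.0186). Itgb4, the beta subunit of a laminin receptor of Schwann cells, fell by 0.84 ± 0.21 (adjusted p = 0.0467). Gap43, a growth-associated protein of axons and of immature Schwann cells, read 13.91 and 13.63 in the congenic and 13.02 and 12.70 in BDIX (0.91 ± 0.22, adjusted p = 0.0409). All 3 lost their call when either congenic array was left out, Itgb4 and Gap43 also without either BDIV array, and Gap43 under median scaling. Sox10, the transcription factor that defines the lineage, read 11.84 and 11.95 in the congenic and 12.21 and 12.42 in BDIX and did not pass the test (adjusted p = 0.135).

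Axonal genes likewise were near the background of 4.58% higher and 6.98% lower, with 1 of 26 higher, 1 lower and a median of 0.17. That median turned to -0.34 under median scaling. Rbfox3, the nuclear splicing factor known as NeuN, was higher by 1.07 ± 0.22 (adjusted p = 0.03), and Stmn2, a tubulin-binding protein of growing axons, was lower by -0.80 ± 0.20 (adjusted p = 0.0483). Neither remained called without the congenic male array, and Rbfox3 was not called under median scaling. Among motors and tubulins 2 of 27 were higher and 2 lower, also near that background. Kif5b, a heavy chain of the conventional kinesin that moves cargo along axons, read 7.36 and 7.75 in the congenic and 9.37 and 10.55 in BDIX (-2.40 ± 0.29, adjusted p = 0.00981). The tubulin gene Tuba4a fell by 0.96 ± 0.17, while Kif3b, a motor of another kinesin class, and Map1a, a microtubule-associated protein, were higher by 0.90 ± 0.20 and 1.11 ± 0.25. Kif5b kept its call whichever array was left out, and the other 3 lost theirs without the congenic male array (adjusted p = 0.206 for Kif3b and 0.171 for Map1a). Kif3b and Map1a were not called under median scaling either.

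Of 24 tested heat shock and endoplasmic reticulum chaperone genes 6 were called lower and 0 higher, with a median of -0.38, against 6.98% of named genes called lower. Pdia3, a protein disulfide isomerase that works with the lectin chaperones on glycoproteins, read 8.20 and 8.24 in the congenic and 9.80 and 10.23 in BDIX. The strains were well apart (-1.80 ± 0.19, adjusted p = 0.00885). Creld2, a secreted protein known to be induced by stress of the endoplasmic reticulum, read 7.21 and 7.88 against 9.50 and 9.25 (-1.83 ± 0.26, adjusted p = 0.0137). Pdia6 and P4hb, which also form disulfide bonds, fell by 1.12 ± 0.18 and 1.09 ± 0.19, and the chaperones Hsp90aa1 of the cytosol and Hsp90b1 of the endoplasmic reticulum fell by 1.66 ± 0.28 and 1.07 ± 0.25. The count was 2 without the congenic female array and 12 without the BDIX male array, and Pdia3 and Creld2 were called whichever array was left out.

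Of 36 vesicle transport and SNARE genes 4 were lower and 0 higher, against 6.98% of named genes called lower, and the median was -0.19. Bet1, a SNARE of transport from the endoplasmic reticulum to the Golgi, read 7.08 and 7.74 in the congenic and 9.48 and 9.86 in BDIX (-2.25 ± 0.20, adjusted p = 0.00643). Sec13, a coat protein of the vesicles on the same route, fell by 1.43 ± 0.30, and the SNAREs Vamp3 and Stx12 of endosomes fell by 1.08 ± 0.19 and 1.18 ± 0.21. Bet1 kept its call whichever array was left out, Vamp3 and Stx12 lost theirs without the congenic female array, and Sec13 and Stx12 without the congenic male array (adjusted p = 0.133 for Sec13). The count was then 2 in each case, and 12 without the BDIX male array.

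Of 22 tested fibroblast and collagen genes 5 were lower and 1 higher, with a median of -0.54, against 6.98% and 4.58% of named genes. Col1a1, a chain of type I collagen, read 7.78 and 7.97 in the congenic, 10.41 and 9.44 in BDIX and 8.84 and 8.63 in BDIV. The difference was -2.05 ± 0.28 (adjusted p = 0.0134). Col3a1, the chain of type III collagen, read 10.07 and 10.40 against 11.99 and 11.68 (-1.60 ± 0.21, adjusted p = 0.0126). In both the congenic arrays were the lowest of the 6. Fn1, fibronectin, fell by 1.02 ± 0.18, and the collagen genes Col15a1 and Col5a2 fell by 0.82 ± 0.18 and 0.75 ± 0.19. Fbln1, a fibulin of elastic fibres and basement membranes, was higher by 1.03 ± 0.19 (adjusted p = 0.0233), a call that was lost under median scaling and without either congenic array. Col1a1 and Col3a1 were called in every fit with 1 array left out, and the count of lower genes was 2 without the congenic male array, 8 without the BDIX male array and 9 without the BDIX female array.

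Of 13 tested basal lamina and laminin receptor genes 3 were lower and 0 higher, against 6.98% and 4.58% of named genes. Col4a1, a chain of the type IV collagen of the Schwann cell basal lamina, read 9.99 and 10.22 in the congenic and 11.80 and 11.93 in BDIX (-1.76 ± 0.20, adjusted p = 0.00885). It stood at 9.99 and 9.68 in BDIV, so that the congenic arrays read near those of BDIV. Utrn, which links the cytoskeleton to the laminin receptor dystroglycan, was detected on neither congenic array and is at least 2.14-fold lower (adjusted p = 0.0311). Colgalt1, which adds sugar to collagen chains, likewise was detected only on the BDIX arrays of this pair of strains and is at least 2.54-fold lower. The small proteoglycan genes Fmod and Epyc, both of which bind collagen fibrils, differed in opposite directions: Fmod read 9.12 and 8.58 in the congenic and 6.53 and 6.69 in BDIX (2.24 ± 0.25, adjusted p = 0.00885), and Epyc read 5.50 and 6.43 against 8.99 and 8.33 (-2.69 ± 0.41, adjusted p = 0.0168). Of the caveolae genes 2 of 8 were lower, against 6.98% of named genes, with a median of -0.72. Cav1, the main protein of these membrane pits, read 6.15 and 6.59 against 7.96 and 9.33 (-2.28 ± 0.32, adjusted p = 0.0138), and Cav2 fell by 1.40 ± 0.27. Col4a1, Colgalt1, Fmod, Epyc and Cav1 kept their call whichever array was left out, while Utrn and Cav2 lost theirs without the congenic female array (adjusted p = 0.0766 and 0.0722), which left 1 basal lamina gene called.

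Of 22 tested Ras pathway genes and genes known from nerve tumours 5 were lower and 0 higher, with a median of -0.14, against 6.98% and 4.58% of named genes. Rras2, a GTPase of the Ras family, read 5.42 and 5.68 in the congenic and 7.24 and 7.45 in BDIX. No congenic array detected it, and it is at least 2.66-fold lower (adjusted p = 0.0127). Nrg1, the ligand on axons for the ErbB receptors of Schwann cells, read 5.25 and 4.92 in the congenic, 6.14 and 6.32 in BDIX and 8.98 and 9.04 in BDIV. It was also detected on neither congenic array and is at least 1.23-fold lower than in BDIX (adjusted p = 0.0302), while BDIV stood far above both. Spred1, an inhibitor of Ras signalling that recruits neurofibromin, fell by 1.26 ± 0.21, and Mras and Rasa1, another small GTPase and a GTPase-activating protein for Ras, fell by 0.89 ± 0.23 and 0.92 ± 0.24. Rras2 kept its call whichever array was left out. Nrg1 lost it without the congenic female array (adjusted p = 0.126), without background correction, under cyclic loess and with no filter on detection. The count of the list was 2 without either congenic array and 3 without either BDIV array.

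Of 25 proliferation genes 3 were lower and 0 higher, with a median of -0.19, a share near the background of 11.6% called and 6.98% lower. Cdkn1b, the inhibitor p27 of cyclin-dependent kinases, read 9.09 and 9.24 in the congenic and 10.65 and 10.61 in BDIX (-1.47 ± 0.17, adjusted p = 0.00956). Cdc25b, a phosphatase that activates such kinases, was detected on neither congenic array and is at least 2.10-fold lower (adjusted p = 0.00956). Stmn1, a regulator of microtubules in dividing cells and neurons, fell by 1.49 ± 0.21 and lost its call without the congenic male array (adjusted p = 0.0719).

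Ethylnitrosourea acts by alkylating DNA, and genes of repair and defence were therefore examined. Of 23 tested genes of alkylation damage and DNA repair 0 were called in either direction in limma, with 6 higher and 0 lower at an unadjusted p under 0.05 (33.6% of all tested probes) and up to 3 called in a direction with 1 array left out. The list had a median of 0.18 that turned to -0.35 under median scaling. Of 37 genes of xenobiotic and oxidative defence 3 were higher and 1 lower, a share below the background of 11.6%, with a median of 0.16 that turned to -0.32. Besides Gpx2, Nqo1, a quinone reductase, read 12.19 and 12.13 in the congenic and 11.08 and 10.89 in BDIX (1.17 ± 0.17, adjusted p = 0.0147). Gstt1, a glutathione transferase, was higher by 1.17 ± 0.29. Nfe2l2, the transcription factor NRF2 that is known to drive Nqo1, was lower by -0.81 ± 0.18 (adjusted p = 0.037). Nqo1, Gstt1 and Nfe2l2 each lost their call when either congenic array was left out, Gstt1 also without the BDIX female array and under median scaling (adjusted p = 0.184), and the count of higher genes was 1 then, 12 without the BDIX male and 8 without the BDIX female array.

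Of 16 tested members of the interferon response list 3 were higher and 0 lower, against 4.58% of named genes called higher. The list does not hold every interferon-induced gene. Eif2ak2, such a gene on chromosome 6 outside the list, was called lower. It was detected on neither congenic array and is at least 1.31-fold lower (adjusted p = 0.038 in limma). The antiviral gene Mx2 read 9.36 and 9.18 in the congenic and 8.49 and 8.35 in BDIX (0.85 ± 0.18, adjusted p = 0.0308), and Ifi44l and the transcription factor gene Irf7 were higher by 0.88 ± 0.22 and 0.82 ± 0.21. Of 21 immediate early genes 3 were higher and 1 lower, against 4.58% and 6.98% of named genes. The higher ones were Ier2 (1.09 ± 0.22), Ccn2 (0.81 ± 0.19), a matrix-associated growth regulator, and Junb (0.72 ± 0.19), a subunit of AP-1. These 6 higher genes were not called under median scaling, where the list medians turned from 0.25 to -0.25 and from 0.10 to -0.56. The interferon count was 0 without either congenic or either BDIV array and 6 without the BDIX male array. The immediate early count was 0 without the congenic female array, 1 without the congenic male or either BDIV array, and 5 and 6 without the BDIX male and female array.

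**Figure D4:**
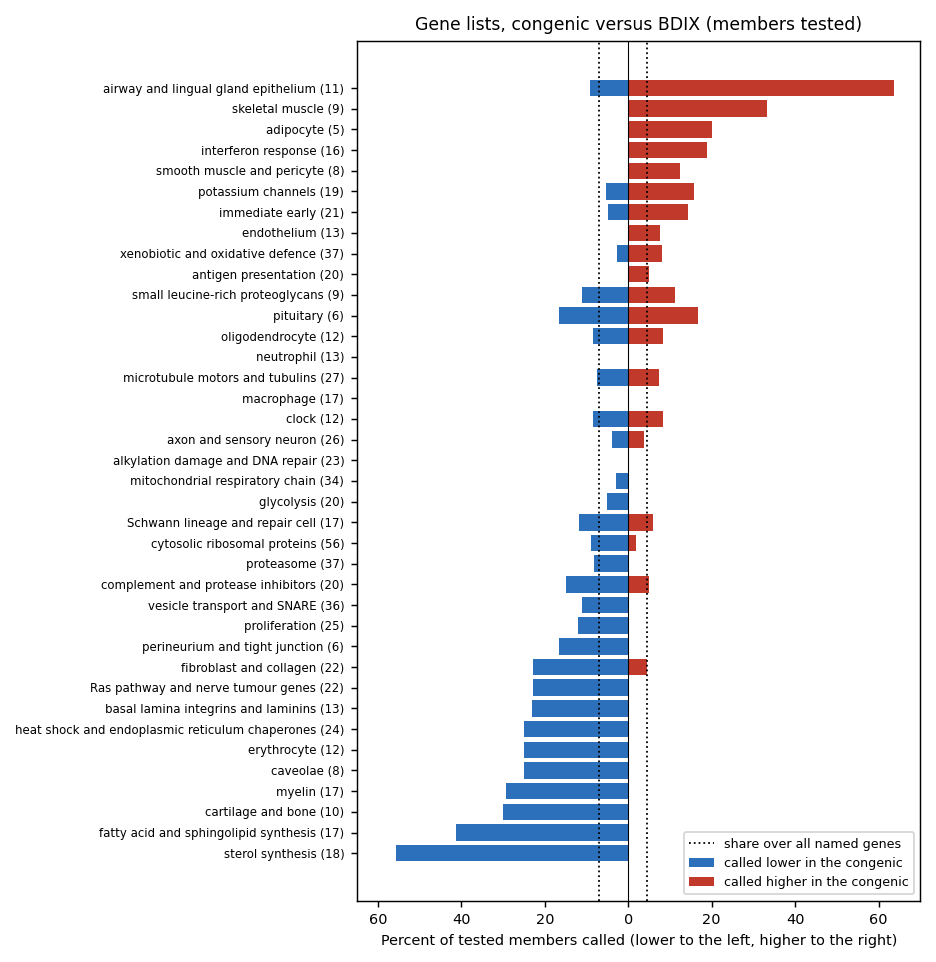
Percent of the tested members of each of the plotted gene lists called lower (bars to the left) or higher (bars to the right) in the congenic against BDIX, with the number tested in brackets. The dotted lines mark 6.98% and 4.58% of all named genes. Sterol synthesis (10 of 18) and airway and lingual gland epithelium (7 of 11, of which 6 were tested through the congenic arrays alone) have the longest bars.

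Among the other large differences, Tekt2, a protein of the microtubules of cilia and flagella, read 6.66 and 7.13 in the congenic and 4.87 and 5.08 in BDIX, which did not detect it, and was at least 2.64-fold higher. It entered the test through the congenic arrays alone, so no p is given. Cldn10, a claudin of ion-conducting tight junctions, was detected only on the congenic arrays of the pair at 6.34 and 7.97, and was at least 3.16-fold higher (adjusted p = 0.0407, 0.076 without the congenic female array). Pla2g7, the secreted phospholipase that hydrolyses platelet-activating factor, read 9.13 and 10.02 against 7.70 and 7.47 (1.99 ± 0.28, adjusted p = 0.0138). For these 3 genes the congenic and BDIX arrays did not overlap. Setd5, a chromatin regulator known from intellectual disability in humans, read 10.52 and 10.62 in the congenic, 9.15 and 9.01 in BDIX and 10.09 and 10.03 in BDIV (1.50 ± 0.18, adjusted p = 0.00956). Brsk1, a kinase known for its part in neuronal polarity, was higher by 1.66 ± 0.22 (adjusted p = 0.0127).

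Among genes lower in the congenic, Eif4a1, the helicase of translation initiation, read 9.09 and 8.84 in the congenic, 10.98 and 10.80 in BDIX and 10.70 and 10.76 in BDIV (-1.92 ± 0.18, adjusted p = 0.00802). Serinc1, known for bringing serine into membrane lipids, read 10.62 and 11.00 against 12.18 and 13.11 (-1.83 ± 0.25, adjusted p = 0.0134). The microtubule end-binding gene Mapre1 read 7.87 and 7.36 against 9.23 and 9.80 (-1.91 ± 0.27, adjusted p = 0.0141). In all 3 the congenic was the lowest strain. Sfrp5, a secreted inhibitor of Wnt signalling, fell by 1.92 ± 0.27, and Fgl2, a fibrinogen-like protein of immune cells, fell by 2.04 ± 0.30. Adam10, the protease that sheds many membrane proteins, read 5.64 and 6.13 against 7.15 and 8.55 (-1.97 ± 0.34, adjusted p = 0.022). Each of the genes of this paragraph kept its call whichever array was left out.

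Detection differed between the strains. Of the tested probes 725 were detected on both BDIX arrays and on neither congenic array, of which 209 were called lower, and 79 were detected on both congenic arrays and neither BDIX array, of which 51 were called higher. The congenic arrays were the dimmer ones, and the part of this in the imbalance was not tested. Called genes seen only in BDIX of this pair included Tgfbr3, the transforming growth factor beta co-receptor betaglycan (at least 2.61-fold lower, adjusted p = 0.0223), Brox (at least 2.53-fold, adjusted p = 0.025) and Ppp2r2b, a regulatory subunit gene of protein phosphatase 2A (at least 2.30-fold, adjusted p = 0.0166). Igfbp3, a binding protein of insulin-like growth factors, was detected only in BDIX of the pair too, at 9.25 in the male and 6.29 in the female against 5.11 and 5.31, but the spread between the BDIX arrays left it short of the threshold (adjusted p = 0.055). Seen only in the congenic was Cnga2, a cyclic nucleotide-gated channel of olfactory neurons (at least 2.60-fold higher), which entered the test through these arrays alone and is given without a p.

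Markers of other tissues also differed. Of 27 genes of airway and lingual gland epithelium on the array 11 passed the detection filter, of which 7 were called higher and 1 lower. Of the 7, 6 passed that filter through the congenic arrays alone, so their calls follow in part from the filter and the count is a description only. The same filter favours the congenic in the summed linear level of the 11, which is likewise a description only. That level was 5050 and 5788 in the congenic male and female, 1679 and 2082 in BDIX and 1021 and 1003 in BDIV. Bpifa1, a secreted airway protein, read 8.35 in the congenic male and 11.81 in the congenic female, whereas the gastric and lingual lipase gene Lipf read 10.15 and 7.69 and the von Ebner gland gene Vegp2 read 10.26 and 6.93. None of these 3 was detected on a BDIX or BDIV array. The lower gene was Cdh1, E-cadherin, at 8.79 and 8.88 against 9.97 and 10.72 (adjusted p = 0.0186, lost without the congenic female array). Its level was highest in BDIX, where those 3 genes were not detected, so it did not follow them. Of 9 skeletal muscle genes 3 were higher, against 4.58% of named genes, with a summed level of 2058 and 1388 in the congenic and 1002 and 715 in BDIX. These were Acta1, the actin of the sarcomere (1.79 ± 0.31), Tnnc2, the troponin C of fast fibres (1.84 ± 0.30), and Des, desmin (1.30 ± 0.21), the last of which was not called under median scaling (adjusted p = 0.06). The other muscle genes were not called and went in both directions. Of 10 cartilage and bone genes 3 were lower, against 6.98% of named genes. They were led by Cnmd, the cartilage glycoprotein chondromodulin, at 8.67 and 8.54 against 11.63 and 11.32 (-2.88 ± 0.19, adjusted p = 0.00226). The others were Epyc and the type II collagen gene Col2a1 (-1.32 ± 0.21, adjusted p = 0.0188, lost without the congenic female array). The remaining members were not called and went in both directions. Among probes detected on all 4 arrays 1 member of the list was called higher and 2 lower. Of 12 erythrocyte genes 3 were lower, against 6.98% of named genes. These were Alas2 (-1.96 ± 0.29) and the globins Hbb-b1 and Hba-a3 (-0.77 ± 0.17 and -0.90 ± 0.23). Alas2 was detected on 1 congenic array and on neither BDIV array. It would not have passed the filter on detection without the BDIX arrays, so its call follows in part from that filter. The other 9 were not called. They included the globins Hba-a1 and Hbb at 0.24 and 0.18 and Epb42, a protein of the red cell membrane, at 0.85 (adjusted p = 0.0537). The calls of Hbb-b1 and Hba-a3 were lost without either congenic or either BDIV array, and the count was 1 without the congenic female or either BDIV array. Globin family members share sequence, so their probes may not tell them apart. In pooled tissue a different share of cells and a different amount of RNA per cell cannot be told apart, and the part of other tissue in the differences above was not tested.

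Some marker sets differed widely between the male and the female pool of a strain. The summed level of 13 neutrophil genes was 8930 in the congenic male and 429 in the congenic female, and 8686 and 1484 in the BDIX male and female, with 0 of 13 called in limma (0 at an unadjusted p under 0.05). Ngp, a neutrophil granule protein, read 8.72 in the congenic male and 8.15 in the BDIX male, against 4.92 and 6.63 in the females. Of 12 tested oligodendrocyte genes 1 was higher and 1 lower, against 4.58% and 6.98% of named genes. The higher one was Hapln2, a link protein at central nodes of Ranvier (1.10 ± 0.20, adjusted p = 0.0233, not called under median scaling or without either congenic array). The lower one was Mal, which Schwann cells make too. Oligodendrocytes and not Schwann cells are known to make Mog and Mobp. Of the genes ranked, Mog and Mobp had the largest gaps between the strain difference in males and that in females. Mog read 6.88 and 9.78 in the congenic male and female and 7.56 and 5.56 in BDIX, and Mobp read 5.80 and 9.38 against 7.96 and 6.48. Of these 4 arrays the congenic female was the highest and the congenic male was below the BDIX male, and neither gene was called (adjusted p = 0.244 and 0.815). Prl, prolactin, a hormone of the pituitary, which lies close to the trigeminal ganglion, read 6.77 and 12.68 in the congenic male and female and 8.59 and 12.33 in BDIX. Pomc, another pituitary hormone gene, read 6.46 and 8.49 against 10.09 and 7.82. With 1 array per strain and sex, whether the strain difference depends on sex could not be tested.

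**Figure D5:**
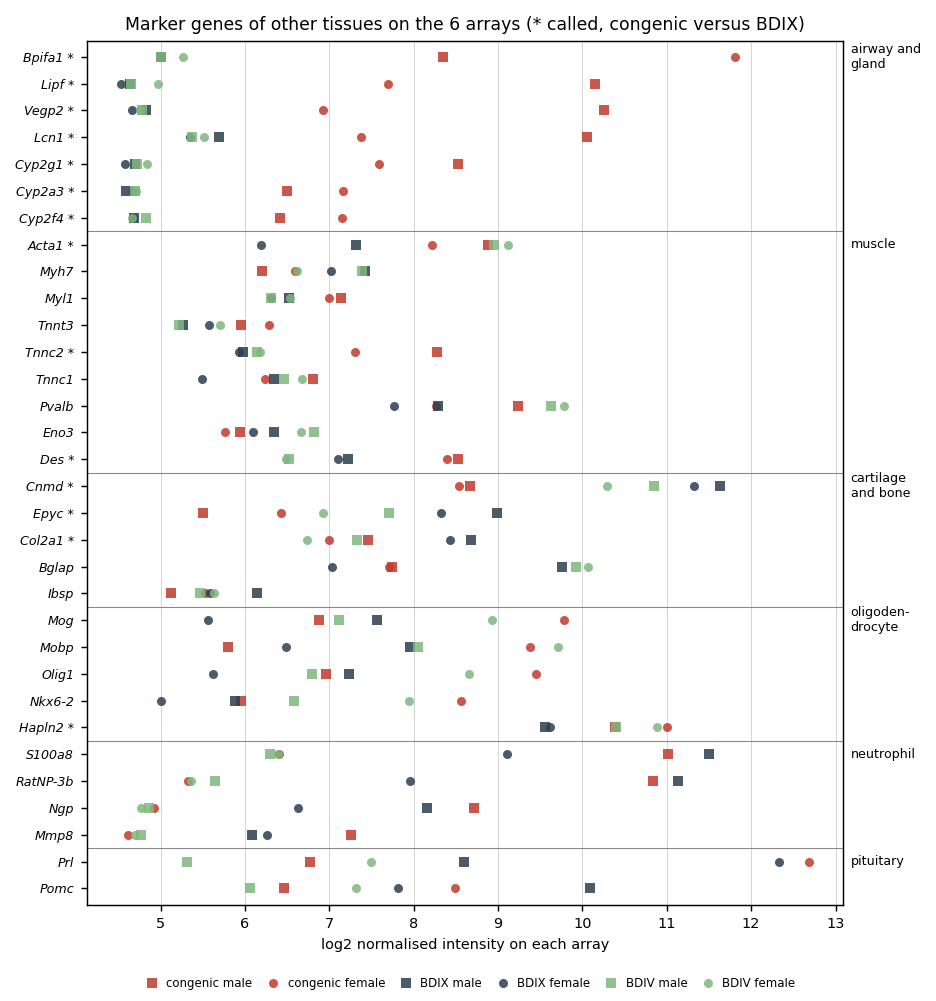
Log2 normalised intensity (horizontal axis) of marker genes of other tissues on each of the 6 arrays, with squares for male and circles for female pools and stars at called genes. The airway and gland genes shown are high on the congenic arrays alone, neutrophil genes are highest on the congenic male or the BDIX male array, and Mog and Mobp are higher in the congenic female than on the BDIX arrays. Positions compare arrays within a gene.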

How the data were processed

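Trigeminal nerve RNA from 6 pools was measured on 1 Illumina rat BeadChip each. Per the file headers, the authors deposited for each probe and array a signal intensity, linear and without background subtraction, and a detection p-value. A second deposited table held processed intensity that followed the signal linearly within each array. The submitters' processing notes name BeadStudio 3.0, with no settings. The 242 of 21791 probes whose values were exchanged between both tables were left out.

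Background was modelled as normal-exponential from the detection p (limma 3.58.1, R 4.3.3), with an offset of 16, before quantile normalisation and log2. Tested probes had p under 0.01 on 2 or more of the 6 arrays. Strain and sex were terms of 1 limma fit over the 6 arrays (2 residual degrees of freedom, intensity trend), and a call is a Benjamini-Hochberg adjusted p under 0.05 over all tested probes. The number of arrays limits the precision. Where a strain detected a gene on no array, a bound sets the other strain's mean against the mean, per array, of the lowest detected level or the gene's own, whichever was higher. Lists hold the brightest probe of each gene. Symbols came from the platform annotation (13387 probes with 1 symbol, 8404 with none, 0 with several), and 13349 matched RefSeq (GRCr8) by gene number.

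The comparison, its genes and the lists were chosen with earlier results of these data known. Named genes are the 30 largest calls each way, the 6 smallest p of each list and members needed for a pathway step. Also named are the largest calls of chromosome 6, the largest bounds, nerve markers and the largest gaps between male and female strain difference. Mog, Mobp, Ngp, Hbb, Hba-a1, Epb42, Prl, Pomc, Mvd, Sox10, Pmp22 and Igfbp3 are named without a call. Eif2ak2 and the called genes of 2 windows of chromosome 6 were chosen after their values were seen. Alternatives changed background, offset, normalisation, filter, arrays, sex term and trend, 1 at a time.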

Additional observations from a re-analysis of the deposited data

Results flagged for a closer look

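Of the genes named above 6 named above differed between congenic and BDIX in opposite directions in males and in females, and with 1 array per strain and sex this was not tested. For Mobp the difference was -2.16 in males and 2.90 in females, a gap of -5.05 on the log2 scale. For Mog it was -0.69 and 4.22, a gap of -4.91, and for Pomc -3.63 and 0.67, a gap of -4.30. Prl differed by -1.82 in males and 0.35 in females, a gap of -2.17. Ngp differed by 0.56 in males and -1.71 in females, a gap of 2.27. Hbb differed by 0.50 in males and -0.13 in females, a gap of 0.64. None of the 6 was called in the fit over both sexes.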

How the results depend on the processing

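Of 1252 calls none changed sign under any of the 16 alternatives that tested it. Offset, cyclic loess, the authors' processed values, no background correction and no intensity trend kept the count between 1150 and 1276. Median scaling gave 3940 calls, 117 higher and 3823 lower, with 11 myelin genes called lower. Without a filter on detection 711 were called, 236 higher and 475 lower, with 3 myelin genes. The 4 arrays alone gave 940 calls, 279 of them higher, and the fit without the sex term, which is the replicate block of this design, gave 1630 with 699 higher. Leaving out 1 array gave 533 to 3170 calls, 145 to 1525 higher and 388 to 1645 lower, with 3 to 13 sterol and 3 to 8 myelin genes called lower. Of 109 called genes named above, not counting Eif2ak2, 44 kept their call whichever array was left out. The call was kept by 50 without the congenic female, 57 without the congenic male and 107 without the BDIX male array. Under median scaling 92 kept it. The sign reversed only for uncalled genes: Mobp under median scaling (-0.13) and, with 1 array left out, over a range of -1.68 to 2.42 for Mobp, -0.42 to 3.95 for Mog, -2.06 to 0.92 for Ngp, -3.43 to 0.48 for Pomc, -0.22 to 0.59 for Hbb and -2.21 to 0.74 for Prl. The cause was not tested. Differences of genes near background are compressed by the added offset, and the dim congenic arrays limit what they detect.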
